A study of Mus musculus with 7 samples.

Results

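The nuclear genes for subunits of the mitochondrial respiratory chain and of ATP synthase were examined in kidneys of mice that lack the lamin B receptor (LBR), which anchors heterochromatin at the inner nuclear membrane. The rule for members used gene names and no measured values. A gene was taken when its symbol was Nduf with a, b, c, s or v and a number, one of Sdha to Sdhd, or began with Uqcr, with Cox and a number from 4 to 8, or with Atp5. This gave 84 of the 24328 symbols listed, namely 35 of complex I, 4 of complex II, 8 of complex III, 20 of complex IV and 17 of complex V. Ndufa4 and its paralog Ndufa4l2 were counted with complex IV, where the Ndufa4 protein is now placed. Atp5s and Atp5sl carry the name of ATP synthase but are not subunits of its catalytic part or rotor. RefSeq lists them as Dmac2l and Dmac2, and they were counted with complex V by symbol only. Subunits encoded in the mitochondrial genome are not analysed here.

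Kidney poly(A) RNA was sequenced from 3 LBR-null mice of genotype Lbric-J/ic-J (mice 4001, 4002 and 4007) and from 1 wild-type (WT) littermate of genotype Lbr+/+ (mouse 4009). There were 2 libraries for each of mice 4001, 4007 and 4009 but 1 for mouse 4002. All were C57BL/6J mice aged 4 weeks from a colony recovered from cryopreserved stock, and the right kidney of each was frozen, pulverized and divided into aliquots. The ic-J mutation is carried in every cell of the LBR-null mice. No sex is given for the mice. The comparison asks which genes differ in expression when LBR is lost, and the mouse was the replicate. With 1 WT mouse the spread between WT mice is unknown. An exact one-sided permutation of 3 mice against 1 cannot give a p under 0.25.

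Each library held 20694016 to 26333284 reads on genes, and values below are normalized counts, that is reads divided by a size factor of the library. Markers of the proximal tubule, the most abundant epithelium of the kidney, were present in all 7 libraries, with a summed level of 136182 to 182672 in LBR-null libraries and 260408 to 261388 in WT libraries. In each LBR-null mouse 7 of these 10 markers were below both WT libraries and 3 were above. The libraries of mouse 4001 stood apart. The 4 cardiac muscle markers Myh6, Tnnt2, Tnni3 and Nppa summed to 82157 and 58296 in them, and to 392 to 1381 in the other 5 libraries. Where this cardiac RNA came from cannot be told from these values, which limits what any mean that includes mouse 4001 says of kidney. The 5 adipocyte markers summed to 1450 and 1455 in the WT libraries and to 55.9 to 280 in LBR-null libraries, and the 3 brown adipocyte markers to 628 and 667 against 17.7 to 156. Erythroid markers were likewise higher in WT libraries, and neutrophil markers were higher in every LBR-null library. Xist, which is expressed from the inactive X chromosome, was at 5352 and 6218 in mouse 4001 and at 9718 and 10163 in mouse 4007, but at 65.3 in mouse 4002 and at 31.7 and 39.4 in the WT mouse. The Y-linked gene Ddx3y was at 39.2 to 149 in mice 4001 and 4007, 1516 in mouse 4002, and 1269 and 1299 in the WT mouse, so the WT mouse shared this pattern with mouse 4002 alone. Lbr was at 314 to 495 in LBR-null and at 381 and 416 in WT libraries, so its RNA level does not test the labels. In these bulk samples, fewer cells of a type and less RNA per cell cannot be told apart.

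Complexes I and II pass electrons from NADH and succinate to ubiquinone, complex III passes them on to cytochrome c, and complex IV passes them to oxygen. Complexes I, III and IV pump protons across the inner membrane, and complex V, the ATP synthase, uses the gradient to make ATP. Proximal tubule and thick ascending limb cells are among the cells with the most mitochondria in the body, since tubular transport is fuelled largely by oxidative phosphorylation. Several complex IV subunits exist as a ubiquitous isoform and as an isoform found mostly in heart, skeletal muscle or brown fat.

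The promoters of these genes are shown for 2 pairs of complex IV isoforms whose tissue-restricted member differed widely between libraries (Cox6a2, which differed most, has no entry in the promoter table used) and for 2 of the 3 genes that were higher in every LBR-null library, because the study asks whether genes with and without CpG-rich starts respond differently to loss of LBR. Each sequence runs 5′ to 3′ on the strand of the gene, from 250 bases before to 50 bases after the transcription start given by RefSeq for GRCm38.p6, and capitals mark CpG dinucleotides.
Cox8b (chr7:140900397-140900696, minus strand): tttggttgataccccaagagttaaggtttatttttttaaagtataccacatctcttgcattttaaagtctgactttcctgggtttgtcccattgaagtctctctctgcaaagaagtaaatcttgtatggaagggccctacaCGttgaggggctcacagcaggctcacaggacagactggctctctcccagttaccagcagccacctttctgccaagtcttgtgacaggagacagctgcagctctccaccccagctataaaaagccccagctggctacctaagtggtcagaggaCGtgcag
Cox8a (chr19:7217567-7217866, minus strand): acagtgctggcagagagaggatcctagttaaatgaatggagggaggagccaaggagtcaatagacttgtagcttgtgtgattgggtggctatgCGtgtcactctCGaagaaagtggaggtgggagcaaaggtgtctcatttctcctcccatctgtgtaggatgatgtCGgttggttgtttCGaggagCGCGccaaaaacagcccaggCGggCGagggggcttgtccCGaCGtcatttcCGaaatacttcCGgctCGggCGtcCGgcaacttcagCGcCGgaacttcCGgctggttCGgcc
Cox7a1 (chr7:30183921-30184220, plus strand): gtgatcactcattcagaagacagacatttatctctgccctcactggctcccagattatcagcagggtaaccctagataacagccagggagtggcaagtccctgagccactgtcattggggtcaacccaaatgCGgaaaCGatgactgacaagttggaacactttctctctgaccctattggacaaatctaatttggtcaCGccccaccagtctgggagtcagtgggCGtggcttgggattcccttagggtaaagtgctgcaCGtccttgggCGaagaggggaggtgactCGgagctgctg
Cox7a2 (chr9:79759804-79760103, minus strand): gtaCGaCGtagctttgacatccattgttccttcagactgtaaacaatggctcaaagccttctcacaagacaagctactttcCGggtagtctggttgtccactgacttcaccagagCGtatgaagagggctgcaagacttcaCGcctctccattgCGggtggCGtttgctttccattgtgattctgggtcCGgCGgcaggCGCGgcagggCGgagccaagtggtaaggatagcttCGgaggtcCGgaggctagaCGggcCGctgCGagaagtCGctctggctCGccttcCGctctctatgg
Cox7a2l (chr17:83514284-83514583, minus strand): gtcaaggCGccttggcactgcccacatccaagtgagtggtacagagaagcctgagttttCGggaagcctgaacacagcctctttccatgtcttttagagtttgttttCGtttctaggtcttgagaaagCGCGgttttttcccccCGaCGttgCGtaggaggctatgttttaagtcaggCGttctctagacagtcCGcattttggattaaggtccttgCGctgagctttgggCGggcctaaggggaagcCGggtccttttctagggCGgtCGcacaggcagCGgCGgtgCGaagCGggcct
Ndufa6 (chr15:82354242-82354541, minus strand): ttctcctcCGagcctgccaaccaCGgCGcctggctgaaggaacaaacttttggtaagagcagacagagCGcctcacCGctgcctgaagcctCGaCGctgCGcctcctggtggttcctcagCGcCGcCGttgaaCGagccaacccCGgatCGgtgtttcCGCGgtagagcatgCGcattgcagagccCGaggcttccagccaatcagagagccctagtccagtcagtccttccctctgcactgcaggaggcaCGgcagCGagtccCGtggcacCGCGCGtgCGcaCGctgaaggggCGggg

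The muscle and brown fat isoform Cox8b held 2 CpG dinucleotides in this window and its ubiquitous partner Cox8a held 19. Cox7a1 held 7 and its partner Cox7a2 held 20. Cox7a2l held 19 and Ndufa6 held 27. Promoters of 69 of the 84 members were in the RefSeq table, and their median was 19 CpG dinucleotides and a GC content of 57.3%, against 7 and 52.7% over all 27025 genes of the table. The 4 tissue-restricted isoforms with a promoter there held 2 to 10, and the other 65 members held 5 to 43 with a median of 20.

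Letters bound by known regulators of respiratory genes were counted on both strands of the same window. The motif GCGCANGCG of NRF1 was found in 20 of 69 member promoters (29.0%) and in 7.03% of all promoters. The ETS motif CCGGAAG, which GABPA binds, was found in 16 (23.2%, against 9.93%), and AAGGTCA of the estrogen-related receptors in 8 (11.6%, against 5.38%). The SP1 motif GGGCGG was in 28 (40.6%), close to the 38.2% of all promoters. None of the NRF1, ETS, estrogen-related receptor or SP1 letters lay in the promoters printed above for Cox8b and Cox7a1. The Cox8a promoter held the ETS letters at 2 places, and the Ndufa6 promoter held the NRF1 letters once and SP1 letters once. Such matches describe the sequence and do not show binding.

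In WT kidney the subunit genes were among the abundant transcripts. Per kilobase of exon, their median was 5063 normalized counts, against 116 over 14939 tested genes with a gene model. Median WT levels per kilobase were 4016 in complex I, 4088 in complex II, 7082 in complex III, 7847 in complex IV and 6469 in complex V. Cox4i1, which encodes a subunit at the regulatory face of complex IV, was the most abundant of the tested members at 37997 per kilobase, and its tissue-restricted paralog Cox4i2 was the least abundant at 73.1. The members with the highest level in the other complexes were Atp5a1 (15219), Uqcr10 (12634), Ndufb9 (11976) and Sdhb (4978). Lengths were unions of the exons of all transcripts, so levels per kilobase are rough.

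All members together took 3.41% and 2.95% of the normalized counts in the libraries of mouse 4001, 3.04% in mouse 4002, and 2.47% and 2.49% in mouse 4007. In the WT libraries they took 3.37% and 3.44%. The 95% Wilson interval of such a share was at most 0.0156 percentage points wide, and it covers counting error only. One of the 5 LBR-null libraries, library 1 of mouse 4001, thus lay within the WT range and the other 4 lay below it. The mean over the LBR-null mice was 2.90% ± 0.372 (SD, n = 3 mice), against 3.40% in the WT mouse.

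Of the 84 members, 81 had a mean of at least 5 normalized counts over the mice and were tested. Cox7b2 and Cox8c stayed under this limit, with 0 to 2.79 normalized counts, or at most 3 reads in any library. Ndufs5, an accessory subunit of complex I, was listed at 0 in all 7 libraries. The assembly factor Sco2, which complex IV also needs, was likewise listed at 0 in each, so a listed 0 does not show that a gene is silent. No member passed the test with all mice, which asked for a Benjamini-Hochberg adjusted p under 0.05 in limma and a 2-fold change. No other gene did either (0% of 17283 genes above WT and 0% below). Unadjusted limma p-values were under 0.05 for 2 members below WT (Ndufa4l2 and Sdhc) and 0 above, against 1391 below and 1852 above among all genes tested. Tests on the recovered reads called 0 members with edgeR (background 0.00579% higher, 0.156% lower) and 1 with DESeq2, Ndufa4l2 (background 3.05% higher, 3.54% lower). A 2-fold ratio of the group averages was met by Cox6a2 and Cox7a2l above WT (14.5% of all genes) and by Ndufa4l2 below WT (7.04%).

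Most subunits nevertheless lay somewhat below WT. The median log2 fold change of LBR-null over WT was -0.29 over the 81 members and 0.01 over all genes tested. Taken against the WT mouse one by one, mice 4001, 4002 and 4007 had medians of -0.04, -0.23 and -0.59, while the median of all genes was 0.01 in each. Mouse 4001 had 44 members below WT, mouse 4002 had 67 and mouse 4007 had 73, where 49.3%, 49% and 49.4% of all genes were below. In all 3 mice at once, 42 members were below WT (32.3% of all genes) and 7 were above (33.7%). In mice 4002 and 4007 together, 66 were below (41.1% of all genes) and 7 above (42.7%). Every LBR-null library was below both WT libraries for 27 members (33.3%), against 25.7% of all genes, and above both for 3 (3.70%), against 25.5%. The remaining 51 overlapped. Mouse 4007 was the lowest of the LBR-null mice for 70 of 81 members, and the highest was mouse 4001 for 49 and mouse 4002 for 31.

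Mouse 4001 set much of the overlap. Without it, every LBR-null library was below both WT libraries for 64 members (79.0%, against 35.1% of all genes) and above for 3 (3.70%, against 35.8%), and the median log2 fold change was -0.45. With mouse 4001 left out, limma called 1 member, Cox8b, which fell (background 3.83% lower, 2.94% higher, 17196 genes), edgeR called Cox8b and Ndufa4l2 (4.31% lower, 2.57% higher) and DESeq2 called these and Atp5g1 (4.67% lower, 2.68% higher). A 2-fold ratio was then met by 4 members, Cox8b, Cox7a1, Ndufa4l2 and Atp5g1, which were below WT (7.47% of all genes), and by 0 above (13.6%). The libraries of mouse 4001 also differed from each other. Its library 1 was above its library 2 for 79 of 81 members, by a median of 0.35 on the log2 scale, where all genes differed by 0.01 and the 648 tested genes with at most 1000 bases of exon by 0.30. In mice 4007 and 4009 the same median over members was -0.01 and -0.04. Scaled to equal library totals, which lowers library 1 of mouse 4001 most, 43 members in place of 27 had all 5 LBR-null libraries under the WT range, while the share of all genes was 25.8% in place of 25.7%. Mouse 4002, the LBR-null mouse with Xist and Ddx3y like those of the WT mouse, had 67 of 81 members below WT. The summed level of the proximal tubule markers was lower in every LBR-null library, and the 4 thick ascending limb markers summed to 131876 and 147114 in mouse 4001, 100038 in mouse 4002, 62992 and 60756 in mouse 4007, and 73920 and 75536 in WT. Of these 4 markers, 3 were above and 1 below both WT libraries in mouse 4001. The counts were 2 and 2 in mouse 4002, and 1 and 3 in mouse 4007. Mouse 4001, with the high cardiac marker sums given above, was also the LBR-null mouse with the highest level for 49 members. The part of proximal tubule, thick ascending limb and cardiac markers in the levels of the subunits was not tested.

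**Figure D1:**
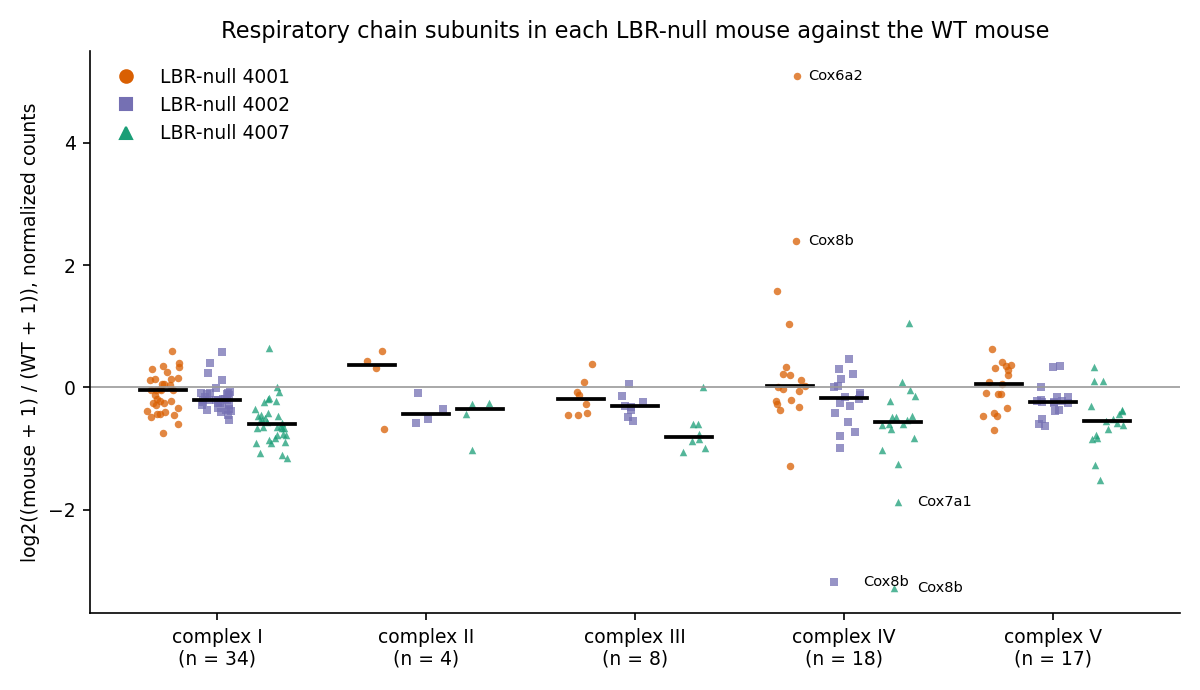
Log2 ratio of normalized counts plus 1 in each LBR-null mouse to the WT mouse (vertical axis) for the 81 tested subunits, by complex (horizontal axis); a point is a gene and a bar the median of a complex in a mouse. Medians of mouse 4007 lie lowest in complexes I, III, IV and V, and Cox6a2, Cox8b and Cox7a1 stand far from the other subunits of complex IV.

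Complex I has 7 core subunits in the list that carry its flavin and iron-sulfur clusters, and the other Nduf genes encode accessory subunits. Its 34 tested genes had a median log2 fold change of -0.33 over the LBR-null mice, with -0.04 in mouse 4001, -0.20 in mouse 4002 and -0.60 in mouse 4007. All LBR-null libraries were below both WT libraries for 14 of them (41.2%, against 25.7% of all genes) and above for 1, and for 29 (85.3%, against 35.1%) and 1 without mouse 4001. Of the core subunits, 2 of 7 lay below WT in this way, and 6 of 7 without mouse 4001.

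The gene furthest below WT was Ndufa1, an X-linked accessory subunit needed to assemble the complex. It was at 3030 and 2302 in mouse 4001, 3381 in mouse 4002, 1985 and 2150 in mouse 4007, and 4419 and 4463 in the WT mouse. All LBR-null libraries were low and none reached the WT range, and the log2 fold change was -0.74 (SE 0.33, adjusted p = 0.29, limma). Ndufc1, a small membrane subunit, was at 2408, 1839, 2444, 1458 and 1408 in the same order of LBR-null libraries and at 3111 and 3275 in WT, a log2 fold change of -0.71. Here too the groups did not overlap and mouse 4007 was lowest. Ndufs8, a core subunit with iron-sulfur clusters, was at 4939, 3834, 5013, 2895 and 2924 against 5957 and 6242 (-0.61), again without overlap.

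Other core subunits were nearer to WT. Ndufv1, which binds NADH and FMN, was at 10835 and 9032 in mouse 4001, 5518 to 6172 in the other LBR-null libraries and 7818 and 7920 in WT. Mouse 4001 was above and mice 4002 and 4007 below WT, with a log2 fold change of -0.15 over all mice. Ndufs1, the largest iron-sulfur subunit, was at 4356 and 4407 in mouse 4001, at 3088 in mouse 4002, at 2266 and 2475 in mouse 4007 and at 4386 and 4533 in WT, so mouse 4001 overlapped WT and the others were below.

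Ndufa6 went against the rest of the complex. This accessory subunit of the matrix arm, a member of the LYR protein family, was at 8273, 6785, 7453, 7753 and 7829 in the LBR-null libraries and at 5047 and 4955 in WT. All 5 libraries were high, with mice 0.58 to 0.64 above WT on the log2 scale, and the mean of 7591 ± 178 (SD, n = 3 mice) had a small spread. The log2 fold change was 0.60 (SE 0.26), which did not pass the test (adjusted p = 0.29, limma). The next highest complex I genes were Ndufa7 (0.16) and Ndufb4 (0.15), whose libraries overlapped WT.

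Complex II, succinate dehydrogenase, also serves the TCA cycle and has no subunit encoded in mitochondrial DNA. Sdhc, one of its membrane anchors, was at 5602 and 4752 in mouse 4001, 5761 in mouse 4002, 4128 and 4044 in mouse 4007, and 8125 and 8381 in WT. No LBR-null library reached the WT range, and the log2 fold change was -0.74 (SE 0.30, adjusted p = 0.265, limma). The other 3 subunits overlapped WT through mouse 4001. Sdha, the flavoprotein that oxidizes succinate, was at 19551 and 19269 in mouse 4001, at 10498 to 11658 in the other LBR-null libraries and at 15523 and 15776 in WT. Sdhb, the iron-sulfur subunit, was at 16512 and 13711, then 9308 to 10444, and 11030 and 11264 in WT. Sdhd, the second membrane anchor, was at 8771 and 7319, then 4194 to 4421, and 5302 and 5369 in WT. In these 3 genes mouse 4001 was above WT by 0.31 to 0.59 on the log2 scale and the other mice were below it, so the complex had its median at 0.37 in mouse 4001, -0.43 in mouse 4002 and -0.35 in mouse 4007.

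Sdhc lies on chromosome 1 (mm9 1:173057296-173080734, minus strand), 10.7 Mb from Lbr at 1:183745447-183772532. On the same chromosome Cox5b, Ndufb3, Ndufs1 and Ndufa10 lie 89.4 to 147 Mb away, with log2 fold changes between -0.49 and -0.36.

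Complex III had the lowest median of the 5 complexes, -0.47 over the LBR-null mice, with -0.19, -0.31 and -0.80 in mice 4001, 4002 and 4007. Of its 8 genes, 4 had every LBR-null library below both WT libraries (50%, against 25.7% of all genes) and 7 did without mouse 4001 (87.5%, against 35.1%). Uqcrq, a small subunit near the quinone sites, was at 7309 and 5525 in mouse 4001, 7276 in mouse 4002, 4033 and 4195 in mouse 4007, and 8605 and 8494 in WT. All LBR-null libraries were low, and the log2 fold change was -0.57 (SE 0.38, adjusted p = 0.475, limma). Uqcrb, another small subunit, was at 7709, 5763, 7379, 5087 and 4903 against 9157 and 9236 (-0.55), also without overlap. Uqcrfs1, the Rieske iron-sulfur protein, was at 9567 and 7880 in mouse 4001, 6291 in mouse 4002, 4695 and 4627 in mouse 4007, and 8989 and 9411 in WT. Its library 1 of mouse 4001 was above WT and the other libraries below, with a log2 fold change of -0.54. The core protein genes Uqcrc1 (-0.53) and Uqcrc2 (-0.34) differed in that Uqcrc1 was low in every library (7056 to 9395, against 12009 and 12234) and Uqcrc2 was not low in mouse 4001 (12540 and 11646, against 11363 and 11484). Uqcr10 had a log2 fold change of -0.34. Uqcrh, the hinge protein at the cytochrome c side, was the single complex III gene above WT at 0.15, and its libraries overlapped WT.

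**Figure D2:**
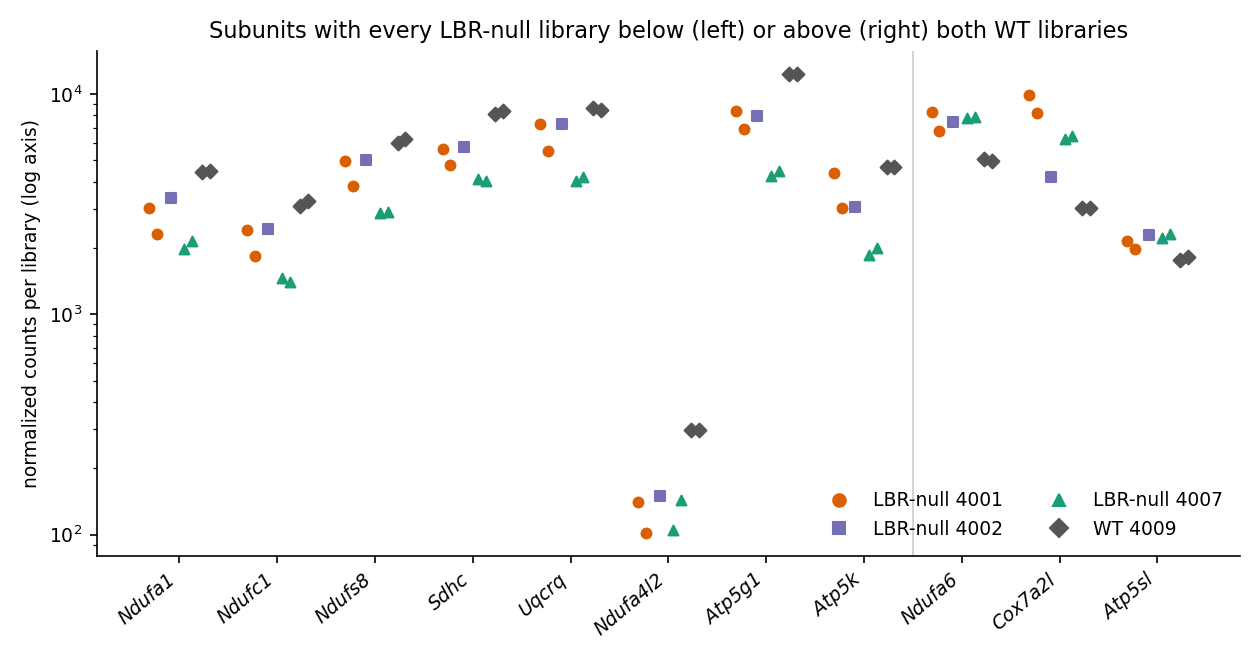
Normalized counts per library (log axis) for 8 subunits in which every LBR-null library lay below both WT libraries and for the 3 in which every one lay above. Points are libraries, with colour and shape for the mouse; mouse 4007 is lowest of the LBR-null mice for Ndufa1, Ndufc1, Ndufs8, Sdhc, Uqcrq, Atp5g1 and Atp5k.

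Complex IV had a median of -0.26 over its 18 tested genes, with 0.02, -0.17 and -0.57 in mice 4001, 4002 and 4007. In 3 genes every LBR-null library was below both WT libraries (Ndufa4l2, Cox6a1 and Cox5b), which is 16.7% against 25.7% of all genes. Without mouse 4001 this held in 11 (61.1%, against 35.1%). The widest differences were in isoforms typical of striated muscle or brown fat. Without Cox6a2, Cox7a1 and Cox8b the median was -0.25.

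Cox6a2, the heart and skeletal muscle isoform of subunit VIa, was at 2788 and 2171 in mouse 4001, 41.3 in mouse 4002, 55.9 and 39.2 in mouse 4007, and 92.9 and 51.6 in WT. Mouse 4001 alone was high, by 5.08 on the log2 scale, and the other mice overlapped or lay below WT, so the fold change over all mice (1.23, SE 2.19, adjusted p = 0.804, limma) rested on this mouse and was -0.69 without it. Cox8b, the muscle and brown fat isoform of subunit VIII, was at 1024 and 702 in mouse 4001, 17.2 in mouse 4002, 14 and 18.2 in mouse 4007, and 176 and 151 in WT. Mouse 4001 was above WT and the other mice were far below. Over all mice the log2 fold change was -1.35 (SE 2.13, adjusted p = 0.777, limma), which the count tests put above WT instead (0.80 with edgeR and 0.78 with DESeq2). Without mouse 4001 it fell by 3.22 (adjusted p = 0.012, limma). Cox7a1, the heart, skeletal muscle and brown fat isoform of subunit VIIa, was at 1577 and 1202 in mouse 4001, 407 in mouse 4002, 183 and 184 in mouse 4007, and 661 and 688 in WT. Mouse 4001 was again high and the others low, with log2 fold changes of -0.52 over all mice and -1.30 without mouse 4001.

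The ubiquitous partners did not show these swings. Cox6a1 was at 11246 to 18475 in LBR-null libraries against 21343 and 21952 in WT, Cox7a2 at 5881 to 7756 against 6543 and 6793, and Cox8a at 12630 to 20183 against 18122 and 18501. As a percentage of the summed counts of these partners, Cox6a2, Cox7a1 and Cox8b together made up 11.6% and 10.8% in mouse 4001, 1.13% in mouse 4002, 0.846% and 0.733% in mouse 4007, and 2.005% and 1.90% in WT. Mouse 4001 was thus above and the other LBR-null mice were below WT in this ratio.

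Cardiac, skeletal muscle and brown fat markers also differed between the mice. Myh6, the atrial and adult ventricular myosin of the mouse heart, was at 37297 and 26380 in mouse 4001 and at 210 to 716 in the other 5 libraries. Nppa, the atrial natriuretic peptide, was at 18457 and 14200 against 38.0 to 379. Of the 4 cardiac markers 4 were above both WT libraries in mouse 4001, and 6 of 8 skeletal muscle markers were, the latter with a sum of 947 and 879 against 80.5 and 149 in WT. In mice 4002 and 4007, where Cox8b and Cox7a1 were below WT, 5 of the 8 skeletal muscle markers were above both WT libraries, with sums of 196 to 221. In the other direction Ucp1, the uncoupling protein of brown fat, was at 374 and 376 in WT, 51.5 and 54.0 in mouse 4001, and 7.45 to 16.4 in mice 4002 and 4007, and Cidea and Adipoq were likewise highest in WT. Of the 3 brown adipocyte markers, 2 were below both WT libraries in each LBR-null mouse. The other 1 was above both in mice 4001 and 4002, though not in mouse 4007. The part of these markers in the values of Cox6a2, Cox8b and Cox7a1 was not tested.

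**Figure D3:**
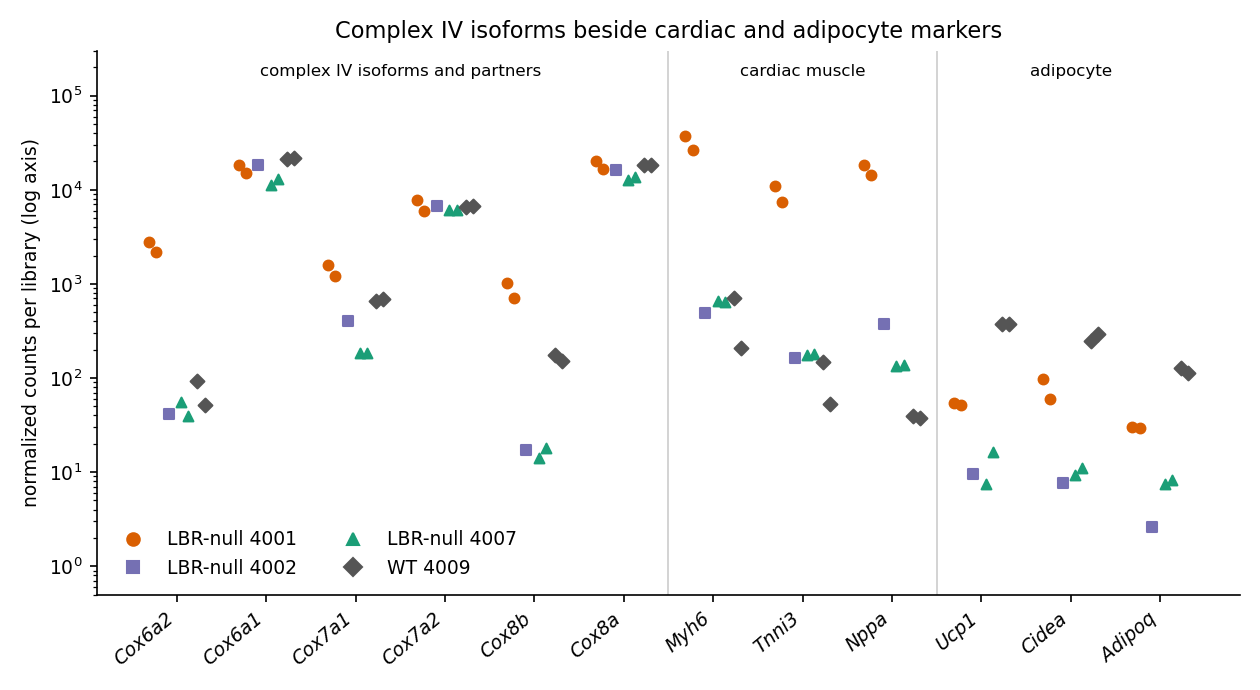
Normalized counts per library (log axis) of 3 tissue-restricted complex IV isoforms, each left of its ubiquitous partner, and of cardiac muscle and adipocyte markers. Points are libraries, with colour and shape for the mouse; mouse 4001 is far above the other mice for Cox6a2, Myh6, Tnni3 and Nppa, and the WT mouse is highest for Ucp1, Cidea and Adipoq.

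Among the other isoform pairs, Ndufa4l2 differed in every mouse. This paralog of Ndufa4, known as a target of hypoxia-inducible factor, was at 141 and 102 in mouse 4001, 150 in mouse 4002, 105 and 144 in mouse 4007, and 298 and 299 in WT. Every LBR-null library was low, and the log2 fold change was -1.18 (SE 0.32, adjusted p = 0.133, limma). DESeq2 on the recovered reads called it (adjusted p = 0.0245) and edgeR did not (adjusted p = 0.133). Ndufa4 itself overlapped WT, with 7624 to 11741 against 10622 and 11174. Cox4i2, an isoform found mainly in lung and in oxygen-sensing and vascular cells, was at 51.2 to 72.0 against 52.8 and 62.4, and Cox6b2, the testis isoform of subunit VIb, at 243 to 425 against 372 and 397. Both overlapped WT, as did the ubiquitous Cox7b at 6717 to 9910 against 9470 and 9962.

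Of the ubiquitous subunits, Cox6b1 had the lowest log2 fold change, -0.55, and library 1 of mouse 4001 (14058) lay within the WT range of 13675 to 14792 while the others were at 6881 to 10629. Cox4i1 was at 36008 and 28693 in mouse 4001, 21565 to 24301 in the other LBR-null libraries and 25605 and 25995 in WT. Mouse 4001 was above and the others below WT, and the log2 fold change of 0.01 turned negative under other scalings.

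Cox7a2l was the member most above WT besides Cox6a2. It encodes a protein related to subunit VIIa that joins complex III and complex IV in supercomplexes. It was at 9882 and 8184 in mouse 4001, 4211 in mouse 4002, 6246 and 6422 in mouse 4007, and 3039 and 3044 in WT. Every LBR-null library was high and the mice ranged widely, from 0.47 to 1.57 above WT on the log2 scale. The log2 fold change was 1.03 (SE 0.44, adjusted p = 0.274, limma) over all mice and 0.76 without mouse 4001. Its gene lies at mm9 17:83901259-83913673 on the minus strand.

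Complex V had a median of -0.24 over its 17 genes, with 0.06, -0.24 and -0.55 in mice 4001, 4002 and 4007. Every LBR-null library was below both WT libraries for 5 genes (29.4%, against 25.7% of all genes) and above for 1, and for 13 (76.5%, against 35.1%) and 1 without mouse 4001. The gene above was Atp5sl both times, which is counted here by symbol only. The 5 subunits of the catalytic F1 part gave 1 and 5 below WT in the same counts. The catalytic subunit gene Atp5b was at 77572 and 70055 in mouse 4001, 38815 in mouse 4002, 40582 and 40797 in mouse 4007, and 54655 and 55779 in WT. Atp5a1, the alpha subunit, was at 59896 and 56115, then 33281 to 36581, and 47184 and 48238 in WT. Both were above WT in mouse 4001 and below it in the other mice.

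Small subunits of the membrane part differed among themselves. Atp5k, subunit e, was at 4379 and 3026 in mouse 4001, 3076 in mouse 4002, 1860 and 2002 in mouse 4007, and 4642 and 4653 in WT. Atp5j2, subunit f, was at 4796 to 7441 against 8573 and 8904. Neither overlapped WT, and the log2 fold changes were -0.73 (SE 0.39) and -0.52 (SE 0.33). Atp5l, subunit g, overlapped WT at 0.02. Atp5g2 and Atp5s were among the 3 highest complex V genes, at 0.18 and 0.17, with libraries that overlapped WT. Atp5s and Atp5sl are in this list by symbol and are not meant as subunits of the membrane part. Atp5sl was at 1969 to 2321 in LBR-null libraries and at 1769 and 1820 in WT, without overlap and with a log2 fold change of 0.30 (SE 0.23, adjusted p = 0.536, limma).

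The c subunit, which forms the rotor ring of ATP synthase, is encoded by Atp5g1, Atp5g2 and Atp5g3, whose mature proteins are identical and whose import sequences differ. Atp5g1 was at 8375 and 6931 in mouse 4001, 7969 in mouse 4002, 4250 and 4457 in mouse 4007, and 12353 and 12344 in WT. All LBR-null libraries were low, and the log2 fold change was -0.94 (SE 0.42, adjusted p = 0.291, limma). Without mouse 4001 DESeq2 called it (adjusted p = 0.0401), while limma did not (adjusted p = 0.12). Atp5g2 was at 5947 and 5457 in mouse 4001, 3179 in mouse 4002, 3873 and 4087 in mouse 4007, and 3801 and 3565 in WT. Atp5g3 was at 13586 to 22898 against 21525 and 22525 and overlapped WT. Per kilobase, Atp5g1 made up 7.98% and 7.77% of the c subunit transcripts in mouse 4001, 10.8% in mouse 4002, 6.50% and 6.75% in mouse 4007, and 13.8% and 13.7% in WT. On normalized counts without length, which the exon union of 4908 bases for Atp5g1 does not enter, its share was 32.8% and 32.1% in WT and 19.1% to 26.8% in LBR-null libraries. On both scales its share was lower in every LBR-null library, and per kilobase the share of Atp5g2 was higher in each (32.6% to 47.0%, against 30.02% and 32.2%).

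**Figure D4:**
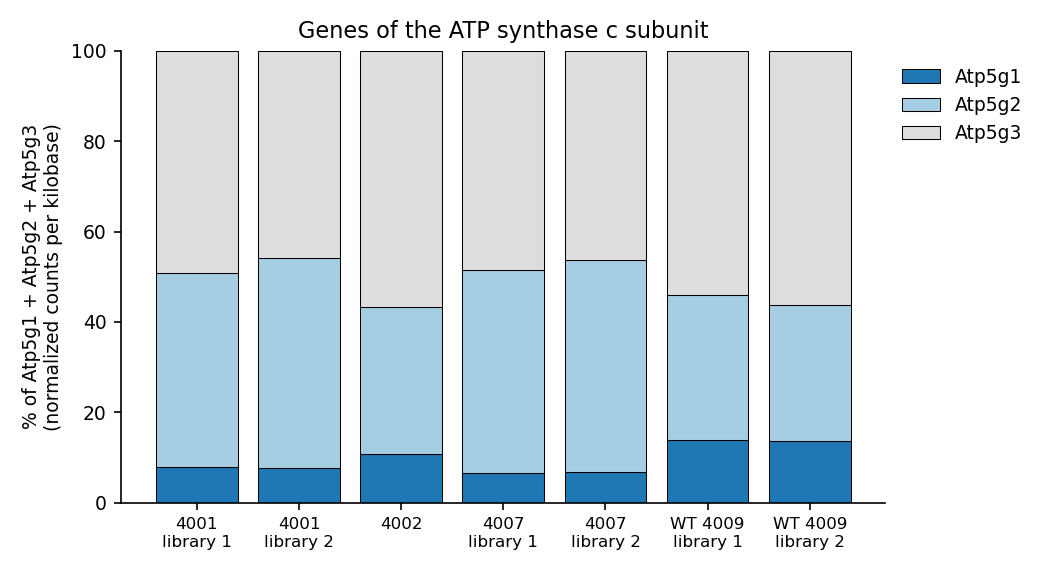
Share of each of the 3 genes in the c subunit transcripts (percent of their summed normalized counts per kilobase) in each library. The Atp5g1 share is 13.7% and 13.8% in the WT libraries and 6.50% to 10.8% in the LBR-null libraries.

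The genes around the chain were read from lists of its assembly factors, carriers, feeding pathways and regulators, and none of their genes passed the limma test with all mice. Of 42 tested assembly factors, 21 had every LBR-null library below both WT libraries (50%, against 25.7% of all genes) and 1 above, with medians of -0.24, -0.23 and -0.50 in mice 4001, 4002 and 4007. Acad9, a complex I assembly factor, was at 701 to 1001 against 1750 and 1825 (-1.01, SE 0.29, adjusted p = 0.142, limma), and Ttc19 of complex III was at 658 to 797 against 584 and 602 (0.35). Of 8 genes for electron carriers and the ATPase inhibitor, 6 were below WT in every library (75%, against 25.7% of all genes) and 0 above. Gpd2, the mitochondrial glycerol phosphate dehydrogenase, was lowest of these (292 to 532, against 898 and 909, -1.13). Of 17 TCA cycle genes 8 were below (47.1%) and 1 above. Idh2, which makes NADPH from isocitrate, was at 27217 to 46104 against 14364 and 14633 (1.17), and Dlst, part of the oxoglutarate dehydrogenase complex, at 4409 to 6007 against 7757 and 7983 (-0.63). Of 14 fatty acid oxidation genes 4 were below (28.6%, against 25.7% of all genes) and 1 above (7.14%, against 25.5%), with medians of 0.44, -0.28 and -0.37 in the 3 mice. Acads, the short-chain acyl-CoA dehydrogenase, was lowest at 1142 to 1698 against 2723 and 2724 (-0.98), and Eci1, an enoyl-CoA isomerase, was highest at 3163 to 4661 against 2455 and 2527 (0.54). Etfa, the carrier from fatty acid oxidation to the chain, was highest of the carriers and overlapped WT (-0.10). Without mouse 4001, limma called Acad9 (-1.09, adjusted p = 0.0472), Acads (-1.05, adjusted p = 0.0418) and Hadh (-1.12, adjusted p = 0.0353) of these lists, which fell (3.83% of all genes called lower, 2.94% higher). DESeq2 with all mice called Acads below WT (3.54% of all genes) and Idh2 and Ppargc1a above it (3.05%), and edgeR called none.

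Regulators of these genes did not share one direction. Ppargc1a, the coactivator that drives mitochondrial biogenesis, was at 5181 and 5625 in mouse 4001, 4236 in mouse 4002, 3873 and 3639 in mouse 4007, and 2108 and 2161 in WT. All LBR-null libraries were high, with a log2 fold change of 1.05 (SE 0.29, adjusted p = 0.14, limma). Esrra, the estrogen-related receptor that works with it, was at 1437 to 2354 against 2940 and 3054 and was low in every library (-0.73, SE 0.31, adjusted p = 0.28, limma). Nrf1 was slightly above WT in every library (0.24), and Tfam, which packages and transcribes mitochondrial DNA, overlapped WT (0.12). Of the 14 regulators tested, 5 were below (35.7%, against 25.7% of all genes) and 3 above WT (21.4%, against 25.5%) in every library.

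Ribosomal protein genes give a comparison with other gene families. Of 71 tested cytosolic ribosomal protein genes, 66 had every LBR-null library above both WT libraries (93.0%, against 25.5% of all genes) and 0 below (against 25.7%), with medians of 0.75, 0.30 and 0.58 in mice 4001, 4002 and 4007. The subunit genes had 3 above and 27 below. Of 77 tested mitochondrial ribosomal protein genes, 35 were below (45.5%) and 3 above (3.90%), with medians of -0.16, -0.26 and -0.40. Among these, Mrps25 was lowest (-0.99) and Mrps6 highest (0.78), and among cytosolic ones Rpl7a was lowest (0.11, overlapping WT) and Rps14 highest (1.15). In mouse 4001 the medians of subunits, mitochondrial ribosomal proteins and fatty acid oxidation genes thus spread from -0.16 to 0.44, while in mouse 4007 they were all below WT. Of 23 translocases of the mitochondrial membranes 8 were below (34.8%) and 2 above (8.70%), from -0.63 in Timm22 to 0.82 in Tomm20. Tests of all these lists against each other were not made.

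**Figure D5:**
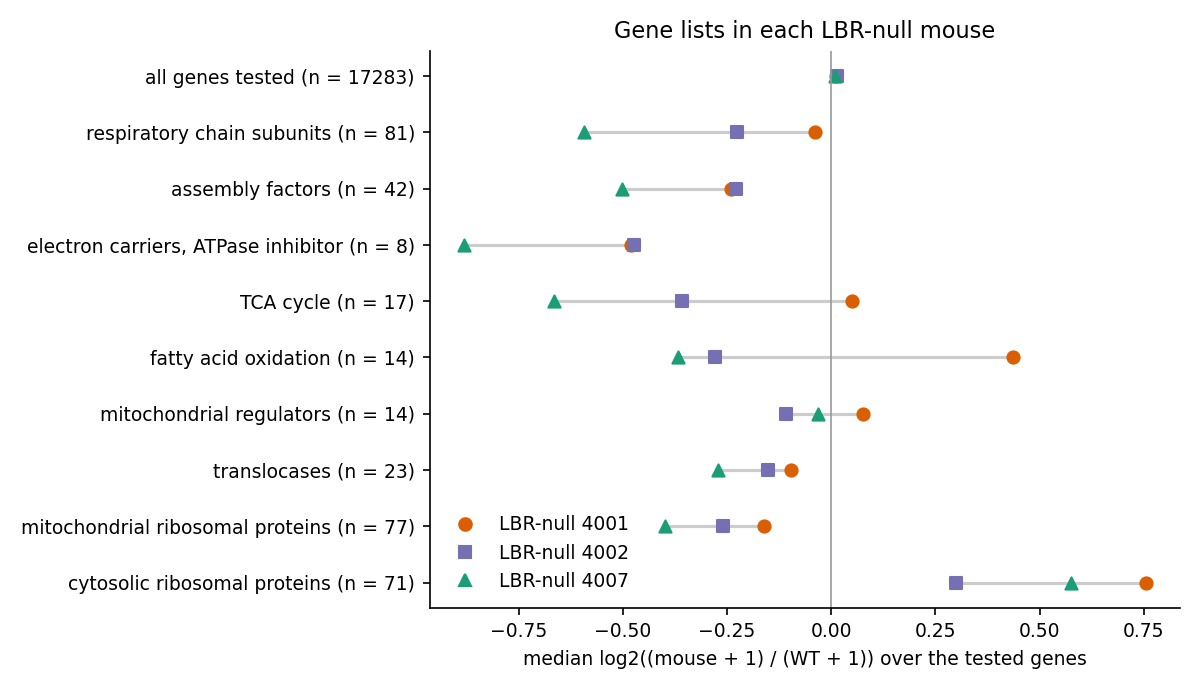
Median log2 ratio of normalized counts plus 1 in each LBR-null mouse to the WT mouse (horizontal axis) over the tested genes of each list. Subunits, assembly factors, carriers and mitochondrial ribosomal proteins lie below 0 in all 3 mice, and cytosolic ribosomal proteins lie above 0.

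Some members share sequence with other parts of the genome. In mm9, 10 of 84 members had at least 1 copy elsewhere with 95% identity over 80% of the transcript, most of all Atp5l with 10. Atp5g2, Atp5k, Cox5b, Uqcrb and Uqcrh were also among these members, whose counts are uncertain. Exons of 7 members overlapped those of other genes by at least 10% of their bases, up to 44.0% in Atp5o, and included Cox6a2 (10.03%). None of Ndufa6, Cox7a2l, Cox8b, Ndufa4l2, Sdhc and Atp5g1 was in either group. The 84 members lie on 19 chromosomes, with 3 on X.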

How the data were processed

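Per the submitters' processing notes, alignment was to mm9 with STAR 2.6.0. The authors deposited 1 signal value for each gene in each library, which is its count of reads over the DESeq2 1.25.1 size factor. The counting program and its annotation are not given in the sources used here. Dividing by the smallest step of a library gave whole reads for 100% of values (tolerance 0.01 read), and 1 read was worth 0.787 to 1.15 normalized counts. Libraries were averaged within a mouse. The labels do not say whether libraries of a mouse came from separate aliquots.

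Differences were tested with limma 3.58.1 (empirical Bayes with a trend) on log2(normalized counts + 1) of mouse means, over the 17283 genes whose mean reached 5, with 2 residual degrees of freedom and Benjamini-Hochberg adjustment. Fold changes on this scale understate those of low genes. Without mouse 4001 the fit had 1 residual degree of freedom. P-values assume that WT mice vary like LBR-null mice. Recovered reads were tested with edgeR 4.0.16 (quasi-likelihood, 1 higher and 27 lower of all genes) and DESeq2 1.42.0 (528 higher, 614 lower). In simulated counts of 14171 genes, 200 were changed 4-fold up or down. Of these, limma called 200 at a dispersion of 0.02 and 88 at 0.1, with 1 and 5 unchanged genes. With edgeR 200 and 89 were called, with 2 and 4 unchanged genes, and with DESeq2 197 and 119, with 0 and 33. DESeq2 thus called more unchanged genes at the higher dispersion. Smaller changes, such as those of most members, were not simulated. Members and lists were chosen with earlier results of these data known. Text names the 3 highest and 3 lowest tested members of complexes I, III, IV and V, all of complex II, all isoforms, 4 regulators, the extremes of each list and every called member. Other members were named to show their roles, after their values were seen. Gene models (GENCODE, mm9) matched 84 of 84 members, exons were aligned to mm9 with minimap2 2.31, and promoters came from RefSeq (GRCm38.p6). Alternatives were other scalings, filters, pseudocounts, library choices, tools and leaving out each LBR-null mouse; the WT mouse could not be left out. R 4.3.3 and Python 3.11.15 were used. 1 member is not reported here by name.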

Additional observations from a re-analysis of the deposited data

Results flagged for a closer look

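Outlying values were found for 2 genes among the 81 tested members by Dixon's test on the 5 LBR-null libraries (limit 0.71), where chance alone flags about 1 group in 20, and libraries of one mouse are not independent. Ndufb9 was at 11689 in library 1 of mouse 4001 and at 6786 to 8190 in the other LBR-null libraries. Ndufb11 was at 11186 in the same library and at 7822 to 8407 in the others. Library 1 of mouse 4001 was above library 2 of that mouse for 79 of 81 members, and the part of this in both values was not tested.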

How the results depend on the processing

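The count of members called (0) was 1 without mouse 4001 (2.94% of all genes called higher, 3.83% lower), 1 with DESeq2 (6.59% called in either direction), 1 with TMM scaling (4.61%) and 1 with equal totals (4.87%) when mouse 4001 was left out as well, 2 with edgeR (6.88%) and 3 with DESeq2 (7.34%) without that mouse, and 0 to 1 when single mice were left out. Fitting single libraries with the library number as a replicate block and the mouse as a random block called 1 member, Cox7a2l (7.6% of all genes). This fit left out mouse 4002, whose library has no number and in which Cox7a2l was nearest to WT (0.47 on the log2 scale). The numbers name libraries of a mouse and pair nothing. The count of 2-fold members (3, against 21.6% of all genes) was 5 with no filter (31.5%) and 4 to 5 without single mice (20.2% to 24.1%). Members below WT in every library (27) numbered 43 with equal totals (25.8% of all genes), 52 with library 2 of each mouse only (32.1%), and 27 to 64 without single mice (28.3% to 35.3%). Members above (3) numbered 6 with library 1 only (32.4% of all genes), 5 with WT library 1 alone (29.2%), and 3 to 5 without single mice (27.9% to 35.7%). The medians of the members and of complexes I, III, IV and V stayed below 0 in every alternative run, and that of complex II ran from -0.41 to 0.02. Of 56 named genes, 43 kept their sign in up to 22 settings.

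The other 13 changed sign in some, mostly near 0, and the cause was not tested. Leaving out single mice gave a range for Atp5g2 from -0.050 to 0.37, Cox4i1 from -0.15 to 0.12, Cox6a2 from -0.69 to 2.24, Cox7a1 from -1.30 to 0.16, Cox7a2 from -0.064 to 0.021, Etfa from -0.40 to 0.058, Lbr from -0.27 to 0.0067, Sdhb from -0.17 to 0.17, Sdhd from -0.31 to 0.16 and Tfam from -0.033 to 0.19. Cox8b kept its sign in these runs but ranged from -3.22 to -0.39. With TMM scaling and no mouse 4001, Cox6a2 was at -0.72, Atp5g2 at -0.077, Sdhb at -0.20, Cox4i1 at -0.18, Tfam at -0.061 and Rpl7a at -0.0024. With equal totals and no mouse 4001, Cox6a2 was at -0.63, Sdhb at -0.10, Cox4i1 at -0.087, Cox7a2 at 0.0028 and Lbr at 0.073. With edgeR and no mouse 4001, Cox6a2 was at -0.74, Atp5g2 at -0.060, Sdhb at -0.18, Cox4i1 at -0.17, Tfam at -0.049 and Lbr at 0.0083. With DESeq2 and no mouse 4001, Uqcrh was at -0.0066, Cox6a2 at -0.77, Atp5g2 at -0.088, Sdhb at -0.21, Cox4i1 at -0.20, Tfam at -0.077 and Rpl7a at -0.018. With library 1 of each mouse only, Sdhd was at 0.042 and Cox7a2 at 0.058. With library 2 only, Sdhb was at -0.026 and Cox4i1 at -0.027. With TMM scaling, Cox4i1 was at -0.022. With equal totals, Cox4i1 was at -0.0016. With WT library 1 alone, Cox4i1 was at -0.0042. With edgeR, Cox8b was at 0.80, Sdhd at 0.027 and Cox4i1 at -0.0050. With DESeq2, Cox8b was at 0.78, Sdhd at 0.0074 and Cox4i1 at -0.025. With the mouse as a random block, Sdhd was at 0.0029. With the replicate block, which also left out mouse 4002, Sdhd was at 0.16 and Etfa at 0.043. Scaling moved the median of all genes by at most 0.03 on the log2 scale. With 1 WT mouse the spread between WT mice cannot be estimated at any depth.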
